A study of Rattus norvegicus with 12 samples.

Results

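The genes of nitric oxide and arginine metabolism described here are the 3 nitric oxide synthases Nos1, Nos2 and Nos3, the 2 arginases Arg1 and Arg2, the arginine transporter Slc7a2, the enzymes Ass1 and Asl, and ornithine decarboxylase Odc1. They were taken by symbol from the deposited tables, and all 9 were found among the 25620 genes of the count table and among the 25524 genes of the FPKM table. The files place Nos1 and Asl on chromosome 12, Nos2 on 10, Nos3 on 4, Arg1 on 1, Arg2 and Odc1 on 6, Slc7a2 on 16 and Ass1 on 3. The data came from wounded skin of male Sprague-Dawley rats in which streptozotocin had induced diabetes, and a circular full-thickness wound had been punched in the back of each animal. RNA depleted of rRNA was sequenced from 12 libraries, 1 for each of 4 treatments on each of days 3, 7 and 14. Control wounds received saline, d-SMG wounds the dried mucus gel of the snail Achatina fulica, GAG wounds what the study's methods call s-GAG, the glycosaminoglycan of that mucus, and Alg wounds a commercial alginate dressing. Diabetes and the punch wound were shared by every group, the controls included, so no library came from a rat without diabetes or from unwounded skin. Streptozotocin destroys the insulin-producing cells by a toxin, so the model is one of insulin lack. The study's methods give 1 age range, of young adults, for all of its rats and tie no age to a library, and the number of animals behind a library is not given in the sources used here. With 1 library for each treatment and day there was no replicate check within a day.

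Nitric oxide synthases turn arginine into nitric oxide and citrulline. Nos3 makes it in the endothelium, where it relaxes vessels, Nos1 in neurons and skeletal muscle, and Nos2 is the inducible form that macrophages and other cells make in inflammation. Arginases split the same arginine into urea and ornithine. Arg1 is abundant in liver and is made by wound macrophages activated by IL-4 or IL-13, and Arg2 is a mitochondrial form. Ornithine feeds polyamines through Odc1, and proline for collagen through other enzymes. Slc7a2 brings arginine into the cell, and Ass1 followed by Asl rebuilds it from citrulline.

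Library totals lay between 13748887 and 38302461 reads on genes. The intervals given below are exact 95% Clopper-Pearson intervals, and say nothing of how far animals differ, since they rest on the number of reads alone. Both keratin and collagen genes of skin were present, with each of the 6 keratinocyte markers and each of the 5 fibroblast markers above 0 in every library. A pair of libraries stood apart. The GAG library of day 14 had a median Spearman correlation of 0.851 with the others, and the d-SMG library of day 3 one of 0.873, against 0.931 to 0.959 for the other 10. In the d-SMG library of day 3 the keratinocyte markers summed to 52.7 CPM, against 4296 to 28784 CPM elsewhere, and the skeletal muscle markers to 178683 CPM, the highest sum of the 12. CPM stands for reads scaled to a common library total, here after TMM, which brings the bulk of genes to a common level. In tissue of mixed cells, fewer cells of a type and less RNA per cell cannot be told apart.

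Promoter sequences from RefSeq were found for 5 of the 9 genes, on the rat assembly GRCr8. The 2 shown here belong to Ass1, the gene with the largest difference between GAG and control over the days, and to Nos3, which made up most of the synthase transcript in every library. Each runs through the 250 bases upstream of the listed start, 5′ to 3′ on the gene's strand, and capitals mark the motifs that were found. The Ass1 window is chr3:35149480-35149729 on the plus strand, and it lies within the outer bounds of the gene, since another transcript starts further upstream. The Nos3 window is chr4:11706582-11706831 on the minus strand.
Ass1: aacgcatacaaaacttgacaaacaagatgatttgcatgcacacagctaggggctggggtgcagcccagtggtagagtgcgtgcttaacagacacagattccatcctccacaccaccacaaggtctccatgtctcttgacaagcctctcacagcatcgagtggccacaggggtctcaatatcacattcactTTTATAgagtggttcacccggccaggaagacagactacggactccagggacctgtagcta
Nos3: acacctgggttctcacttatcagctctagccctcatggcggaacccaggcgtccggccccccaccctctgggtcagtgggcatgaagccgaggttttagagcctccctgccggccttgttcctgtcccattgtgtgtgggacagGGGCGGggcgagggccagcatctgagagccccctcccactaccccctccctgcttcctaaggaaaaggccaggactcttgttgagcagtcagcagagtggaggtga

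The motifs searched on both strands were the TATA box (TATAAA), the CCAAT box, the GC box (GGGCGG), the E-box (CACGTG), the AP-1 site (TGANTCA), the GAS element (TTCNNNGAA) and the core of the cAMP response element (TGACG). The Ass1 window held a single match, TATAAA on the reverse strand with its first base at -60, and 13.1% of 27457 rat promoter windows hold that motif. The Nos3 window held GGGCGG, the GC box, with its first base at -106, and 32.4% of all windows hold it. GC content was 51.2% for Ass1 and 62.4% for Nos3, against a median of 52% over all windows. These matches describe letters only.

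Levels were compared between genes in FPKM, which corrects for gene length. By the median of the 12 libraries Odc1 was the most abundant at 19.1 FPKM, followed by Ass1 at 7.74 FPKM and Arg1 at 4.90 FPKM. Asl at 2.80 FPKM and Nos3 at 2.68 FPKM came next, and their ranges of 1.55 to 4.82 and 0.79 to 5.47 FPKM overlapped widely. Slc7a2 at 0.745, Nos1 at 0.49 and Nos2 at 0.43 FPKM were all low. Arg2 was the lowest at 0.125 FPKM, with at most 30 reads in any library and 3 or fewer reads in 6 of them. The order is that of medians, since Arg1 ran from 1.90 to 44.3 FPKM and Ass1 from 1.69 to 34.5 FPKM, so that neighbours in the order overlapped. The genes also differed in how far they moved among libraries. The SD of log2 CPM was 1.87 for Nos1, 1.73 for Nos2, 1.40 for Ass1 and 1.27 for Arg1, larger than that of 97.4%, 96.6%, 93.0% and 90.6% of the 15672 genes that passed the low-count filter. Asl had an SD of 0.335, and 17.5% of genes had a smaller one. The median over all genes was 0.570. The plot of CPM by day shows these differences for all 9 genes.

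**Figure D1:**
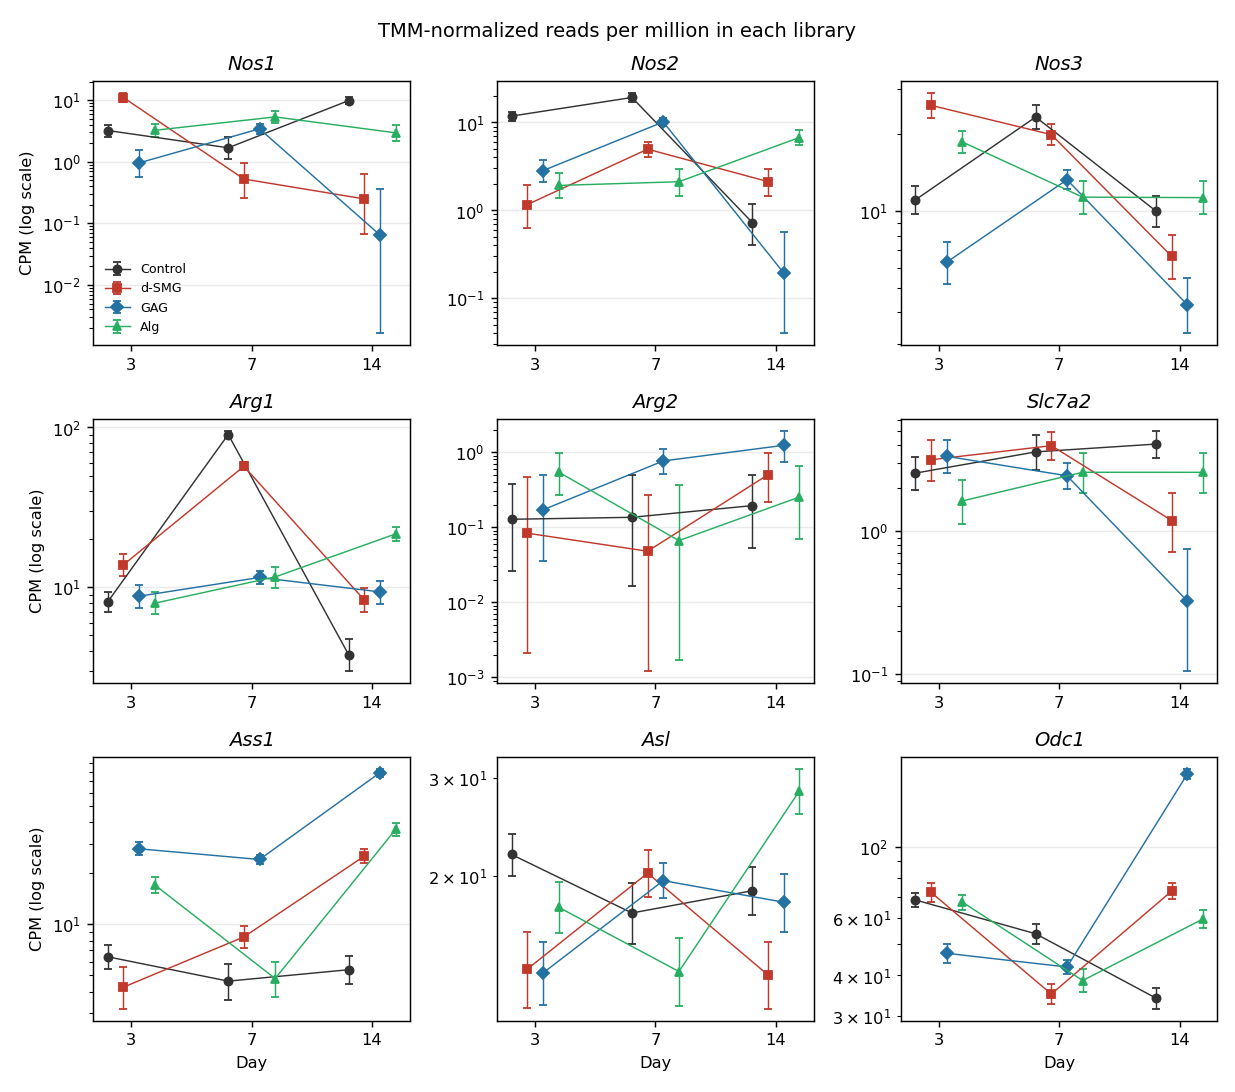
TMM-normalized CPM (log scale) of the 9 genes on days 3, 7 and 14 in Control, d-SMG, GAG and Alg libraries, 1 point a library, with exact 95% counting intervals as bars. Nos2 peaked at 19.2 CPM in the control library of day 7, Arg1 reached 90.3 CPM in the same library, and Ass1 reached 78.8 CPM in the GAG library of day 14.

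Nos2, the inducible synthase, was measured at 11.8 CPM in the control library of day 3, 19.2 CPM on day 7 and 0.727 CPM on day 14. The d-SMG libraries held 1.17, 4.97 and 2.13 CPM on the same days. The GAG libraries held 2.83, 10.1 and 0.195 CPM, the last from only 3 reads, and the Alg libraries 1.93, 2.12 and 6.74 CPM. On days 3 and 7 the control library lay above all 3 dressed libraries, while on day 14 it lay below the d-SMG and Alg libraries. In d-SMG and GAG the highest value was that of day 7, as in control, and in Alg it was that of day 14. Against the control library of day 3, Nos2 was 10.1-fold lower in d-SMG (95% counting interval 5.94 to 18.8) and 6.14-fold lower in Alg (4.38 to 8.82), and both were called by edgeR's exact test at a set biological coefficient of variation (BCV) of 0.3 and a false discovery rate of 0.05. The test compares single libraries, not treatments. The GAG library of day 3, at 4.17-fold lower, was not called. On day 7 Nos2 was called 9.07-fold lower in Alg (6.28 to 13.5), and values of 3.87-fold lower in d-SMG and 1.90-fold lower in GAG were not called. On day 14 the Alg library was called 9.27-fold higher than control (5.38 to 17.1), from 107 reads against 15. The summed level of 6 macrophage markers was 1069 CPM in the control library of day 3, 1261 CPM on day 7 and 1403 CPM on day 14. It was 898, 2098 and 561 CPM in the d-SMG libraries of these days, 582, 595 and 202 CPM in those of GAG, and 752, 268 and 2130 CPM in those of Alg, with none of the 6 markers at 0. In the d-SMG library of day 7 the macrophage sum was above that of control and Nos2 was below it. Singly, 4 of the 6 markers were higher there than in control and none was called. Their median log2 difference was 0.18, against 0.02 over all genes. In the d-SMG library of day 3, 2 of the 6 were higher than in control and 1 was called lower. Their median was -0.92 there, against 0.004 over all genes. Of 5 neutrophil markers tested in that pair 0 were higher and 2 were called lower, with a median of -1.69. Of all genes 4.51% were called lower in it. The neutrophil sum was 67.9 CPM in d-SMG and 140 CPM in control on day 3. Over the 12 libraries the correlation of Nos2 was r = 0.519 with macrophage markers (permutation p = 0.0843, adjusted p = 0.410 over 63 relations of genes and marker lists, rho = 0.399, permutation p = 0.202, adjusted p = 0.577) and r = 0.651 with 6 summed neutrophil markers (permutation p = 0.0226, adjusted p = 0.284, rho = 0.615, permutation p = 0.0376, adjusted p = 0.304). Without the 2 libraries farthest from the median marker level, r was 0.176 and 0.656. The part of macrophage and neutrophil content in the Nos2 values was not tested.

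Nos3, the endothelial synthase, varied less, and no library pair was called. Control libraries held 11.1, 23.4 and 9.99 CPM on days 3, 7 and 14, and d-SMG libraries 26.0, 19.9 and 6.63 CPM. GAG libraries held 6.29, 13.3 and 4.29 CPM, and Alg libraries 18.7, 11.3 and 11.3 CPM. The 4 libraries of day 14, at 4.29 to 11.28 CPM, all lay below the 4 of day 7, at 11.34 to 23.4 CPM, although the Alg libraries of both days were almost level. Of all genes, 0.683% lay wholly lower on day 14 than on day 7. Over the 4 treatments the log2 difference of day 14 from day 7 was -1.12 (SE 0.387), which was not called by edgeR's quasi-likelihood test (adjusted p = 0.904). Nos3 was set beside endothelial markers. Over the 12 libraries the log2 CPM of Nos3 and of 6 summed endothelial markers correlated with r = 0.816 (permutation p = 0.00132, adjusted p = 0.0832 over 63 relations of genes and marker lists) and rho = 0.783 (permutation p = 0.00371, adjusted p = 0.117). Without the 2 libraries farthest from the median marker level, r was 0.756. None of the 63 relations passed an adjusted p of 0.05. In the GAG library of day 14, where Nos3 was lowest, the endothelial sum was 383 CPM, against 371 CPM in control. Singly, 1 of the 6 markers was higher there and was called, and 2 were called lower. Of all genes 14.0% were called higher in that pair and 18.7% lower. The median log2 difference of the 6 was -0.97, against -0.10 over all genes. The part of endothelial content in the Nos3 values was not tested.

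Nos1, the neuronal synthase, was measured at 3.23, 1.69 and 9.89 CPM in the control libraries of days 3, 7 and 14. The d-SMG libraries held 11.1, 0.526 and 0.250 CPM, the GAG libraries 0.964, 3.44 and 0.0649 CPM, and the Alg libraries 3.26, 5.37 and 2.96 CPM. On day 14 all 3 dressed libraries lay below control, whereas on day 3 the d-SMG library was above it. Of these, the d-SMG library of day 14, with 4 reads against 204, was called 39.5-fold lower (15.2 to 146). The GAG library of that day had 1 read, and its ratio of 152-fold lower has a counting interval from 27.03 to 6045. Skeletal muscle expresses Nos1, and the wounds held much muscle RNA. The 7 summed muscle markers were lowest in the d-SMG libraries of days 7 and 14, at 4392 and 5503 CPM, and highest in the d-SMG library of day 3, and those 3 libraries held 2 of the 3 lowest values of Nos1 and the highest. The GAG library of day 14 did not follow this, since its muscle markers summed to 71925 CPM. Over the 12 libraries the correlation of Nos1 with the muscle markers was r = 0.493 (permutation p = 0.102, adjusted p = 0.410). By rank rho was 0.517 (permutation p = 0.0877, adjusted p = 0.425). Without the 2 libraries farthest from the median marker level, r was 0.164. The part of muscle content in the Nos1 values was not tested.

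Within the synthases, Nos3 took 52.2% to 96.3% of the summed FPKM and was the most abundant isoform in every library. Nos2 took 37.8% in the control library of day 3, 34.7% in that of day 7 and 30.6% in the GAG library of day 7, and no more than 25.7% in the other 9. Nos1 took 38.4% in the control library of day 14 and at most 21.6% elsewhere. The balance of isoforms is drawn for each library together with the ratio of Nos2 to Arg1.

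**Figure D2:**
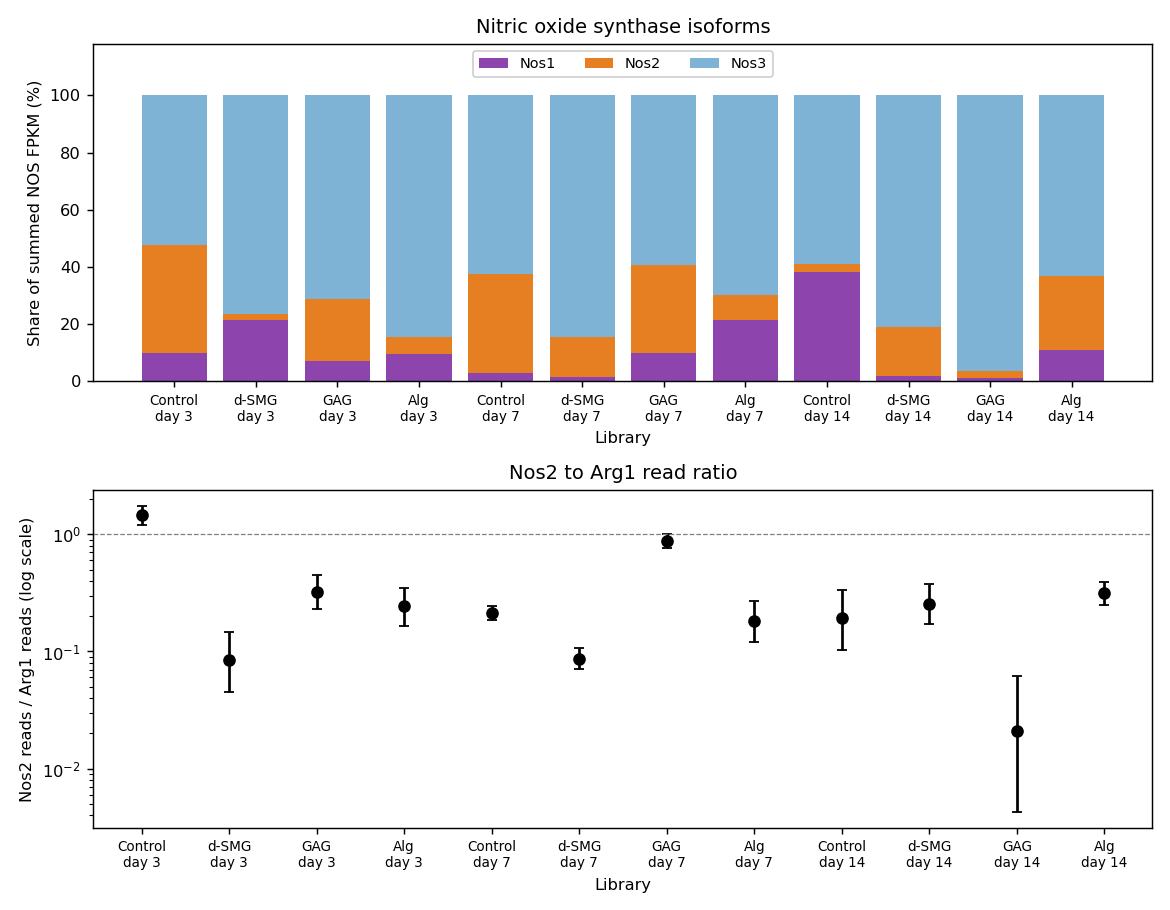
Upper panel, share (%) of Nos1, Nos2 and Nos3 in the summed FPKM of the 3 synthases in each of the 12 libraries; lower panel, Nos2 reads divided by Arg1 reads (log scale) with exact 95% counting intervals and a dashed line at 1. Nos3 holds at least 52.2% everywhere, and the ratio runs from 0.0208 in the GAG library of day 14 to 1.46 in the control library of day 3. Read ratios are not corrected for gene length, and in FPKM that highest ratio is 0.459.

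Arg1, the arginase of alternatively activated macrophages, stood out by its height on day 7 in control and d-SMG wounds. The control libraries held 8.12 CPM on day 3, 90.3 CPM on day 7 and 3.78 CPM on day 14, and the d-SMG libraries 13.8, 57.1 and 8.32 CPM. In contrast, the GAG libraries stayed between 8.79 and 11.5 CPM on all 3 days, and the Alg libraries held 7.95, 11.6 and 21.6 CPM. The control and d-SMG libraries of day 7 were therefore the only ones above 21.6 CPM. On day 7 Arg1 was called 7.85-fold lower than control in GAG (7.05 to 8.75) and 7.78-fold lower in Alg (6.64 to 9.16), while the d-SMG library, 1.58-fold lower, was not called. On day 14 the control library was the lowest of the 4, and Arg1 was called 5.70-fold higher in Alg (4.45 to 7.39). The d-SMG and GAG libraries of day 14, 2.20-fold and 2.47-fold higher, were not called. On day 3 the 4 libraries lay within 7.95 to 13.8 CPM and none was called. Over the 4 treatments the log2 difference of day 7 from day 3 was 1.97 (SE 0.778, edgeR quasi-likelihood adjusted p = 0.998), and it was 1.19 without the control libraries and 1.84 without the d-SMG libraries. Neutrophil markers were also high where Arg1 was high: 6 of them summed to 202 and 210 CPM in the control and d-SMG libraries of day 7 and to 219 CPM in the Alg library of day 14, against 51.1 to 140 CPM in the other 9. Over the 12 libraries Arg1 had r = 0.714 with neutrophil markers (permutation p = 0.00494, adjusted p = 0.156) and rho = 0.531 (permutation p = 0.0799, adjusted p = 0.420). With endothelial markers r was 0.609 (permutation p = 0.0305, adjusted p = 0.304), and with macrophage markers 0.408 (permutation p = 0.188, adjusted p = 0.431). Macrophage markers summed to 1261, 2098 and 2130 CPM in the same 3 libraries. The part of these cells in the Arg1 values was not tested.

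Arg2, the mitochondrial arginase, took at most 14.6% of the summed FPKM of the 2 arginases. It had 1 to 4 reads in 8 of the 12 libraries. The highest values were 30 reads (0.764 CPM) in the GAG library of day 7 and 19 reads (1.23 CPM) in that of day 14, against 2 and 4 reads in control. The latter pair was called higher in GAG, at 6.36-fold (2.11 to 25.7), and the former, from 2 control reads, gave a ratio of 5.64 with an interval of 1.43 to 48.7 and was not called. The call held in 6 of 9 settings. It was lost when library size replaced TMM, at a BCV of 0.4, and when at least 50 reads were required in the pair.

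Nos2 and Arg1 compete for arginine, and their reads were set against each other within each library. The ratio of Nos2 reads to Arg1 reads was 1.46 in the control library of day 3 (1.21 to 1.76), the only one whose interval lay above 1. The GAG library of day 7 followed at 0.881 (0.768 to 1.01). In 9 other libraries the ratio ran from 0.0843 to 0.323, and in the GAG library of day 14 it was 0.0208 (0.00425 to 0.0621). In d-SMG the ratio was 0.0843 on day 3, 0.0870 on day 7 and 0.256 on day 14. Control libraries held 1.46, 0.213 and 0.192 on the same days. On day 3 the control library was above all 3 dressed libraries, with no overlap of the intervals. These are ratios of reads, which are not corrected for the lengths of the 2 genes. In FPKM, which is corrected, the ratio was 0.459 in the control library of day 3, the highest of all. By FPKM Arg1 was therefore above Nos2 in every library, and a read ratio above 1 does not mean more Nos2 transcript than Arg1.

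Slc7a2, the arginine transporter, lay between 1.63 and 3.97 CPM in the 8 libraries of days 3 and 7. On day 14 it was 4.07 CPM in control, 2.58 CPM in Alg, 1.19 CPM in d-SMG and 0.325 CPM in GAG. All 3 dressed libraries were below control on that day. The GAG library, with 5 reads against 84, was called 12.5-fold lower (5.17 to 39.6), and the d-SMG and Alg libraries, 3.42-fold and 1.58-fold lower, were not called.

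Ass1, argininosuccinate synthase, was higher in GAG than in control on every day. The control libraries were flat at 6.42, 4.61 and 5.38 CPM on days 3, 7 and 14. The GAG libraries held 27.9, 24.2 and 78.8 CPM, the d-SMG libraries 4.25, 8.42 and 25.3 CPM, and the Alg libraries 17.1, 4.77 and 36.4 CPM. All 3 GAG libraries lay above all 3 control libraries, as 9.41% of all genes did. Ass1 was called higher in GAG on each day, by 4.35-fold (3.62 to 5.26) on day 3, 5.25-fold (4.10 to 6.81) on day 7 and 14.6-fold (12.1 to 18.0) on day 14. On day 14 it was also called in d-SMG at 4.70-fold (3.80 to 5.85) and in Alg at 6.76-fold (5.51 to 8.36). Neither d-SMG nor Alg was called on days 3 and 7. Over the 3 days the log2 difference of GAG from control was 2.704 (SE 0.576), the largest of the 9 genes, yet it was not called by edgeR's quasi-likelihood test (adjusted p = 0.399). DESeq2's Wald test on the same libraries called it (log2 difference 2.71, adjusted p = 0.000729). Without the GAG library of day 14 the difference was 2.61 (edgeR adjusted p = 0.407), and without the d-SMG library of day 3 it was 2.74 (edgeR adjusted p = 0.0590). For Alg over the days the difference was 1.40 (SE 0.560, edgeR adjusted p = 0.9999). Ass1 followed keratinocyte markers in rank: over the 12 libraries rho was 0.811 (permutation p = 0.00218, adjusted p = 0.117) and r was 0.573 (permutation p = 0.0338, adjusted p = 0.304). Without the 2 libraries farthest from the median marker level, r was 0.718. The 6 summed keratinocyte markers were 11856, 18165 and 28784 CPM in the GAG libraries, against 5184, 4296 and 10885 CPM in control. Singly, 4 of the 6 were higher in GAG on day 3 and all 6 on day 7. On day 14 the markers were split, with 2 of the 6 called higher in GAG and 3 called lower. Of all genes 14.0% were called higher in that pair and 18.7% lower. The median log2 difference of the 6 was -0.88 there, against -0.10 over all genes. With 4 summed adipocyte markers r was 0.566 (permutation p = 0.0526, adjusted p = 0.353) and rho was 0.615 (permutation p = 0.0368, adjusted p = 0.304), and r was 0.302 without the 2 libraries farthest from the median. Those markers summed to 91.3, 103 and 72.6 CPM in the GAG libraries and to 44.6, 17.1 and 85.0 CPM in control, so that the GAG library was higher on days 3 and 7 and lower on day 14. The part of keratinocyte and adipocyte content in the Ass1 values was not tested.

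Asl, argininosuccinate lyase, acts after Ass1 and was far steadier. Its 12 values lay between 13.3 and 28.4 CPM, it was called in no pair, and its correlation with Ass1 over the 12 libraries was r = 0.2001 (a description, with no test). The control library of day 3, at 21.9 CPM, was above the dressed libraries of that day at 13.4 to 17.6 CPM, and the Alg library of day 14 held the highest value. Ass1 FPKM was 0.940 to 1.03 times that of Asl in the control libraries and 4.31 to 15.4 times in the GAG libraries. The 3 control libraries thus lay together and well apart from those of GAG, while d-SMG ran from 1.09 to 6.65 and Alg from 1.24 to 4.49.

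Odc1, the entry enzyme of polyamine synthesis, held 68.4, 53.8 and 34.0 CPM in the control libraries of days 3, 7 and 14. The d-SMG libraries held 72.3, 35.1 and 72.9 CPM, the GAG libraries 46.8, 42.5 and 167 CPM, and the Alg libraries 67.4, 38.6 and 59.8 CPM. The control library was the highest of the 4 on day 7 and the lowest on day 14. Only the GAG library of day 14 was called, at 4.92-fold higher than control (4.53 to 5.36). The d-SMG and Alg libraries of that day were 2.14-fold and 1.76-fold higher and were not called.

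Over the 9 library pairs, 76 tests of these genes were possible and 17 were called, 9 higher and 8 lower than control. The calls were 3 on day 3, where 4.43% of all tests across genes were called, 4 on day 7, where 3.45% were, and 10 on day 14, where 14.6% were. By pair, d-SMG, GAG and Alg had 1, 1 and 1 gene called on day 3, against 6.48%, 4.32% and 2.58% of all genes. On day 7 they had 0 of 8, 2 of 9 and 2 of 8, against 1.78%, 6.29% and 2.14%. On day 14 they had 2 of 9, 5 of 9 and 3 of 8, against 5.87%, 32.7% and 5.14%. Split by direction, 1.97%, 2.96% and 1.44% of all genes were called higher in d-SMG, GAG and Alg on day 3, and 4.51%, 1.35% and 1.15% lower. On day 7 the shares called higher were 0.755%, 3.50% and 1.02%, and those called lower 1.03%, 2.79% and 1.12%. On day 14 they were 1.98%, 14.0% and 2.36% higher, and 3.90%, 18.7% and 2.78% lower. The GAG pair of day 14 contributed 5 of the 17 calls, 3 higher and 2 lower. With library size in place of TMM it gave 2 higher and 3 lower, as Arg2 was lost and Nos3 was called lower, and under that scaling the median of all genes in this pair moved from -0.10 to -0.48. Nos3 and Asl were called in none of the 9 pairs, Nos2 was called in 4 and Ass1 in 5. Their direction was not uniform, since Nos2 was called lower on days 3 and 7 and higher on day 14, and Arg1 lower on day 7 and higher on day 14. The median log2 difference of the 9 genes tested ranged over the pairs from -0.63 in GAG on day 3 to 1.10 in d-SMG on day 14, and the median over all genes from -0.10 to 0.05. All 3 pairs of a day share the control library, so that they are not independent.

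**Figure D3:**
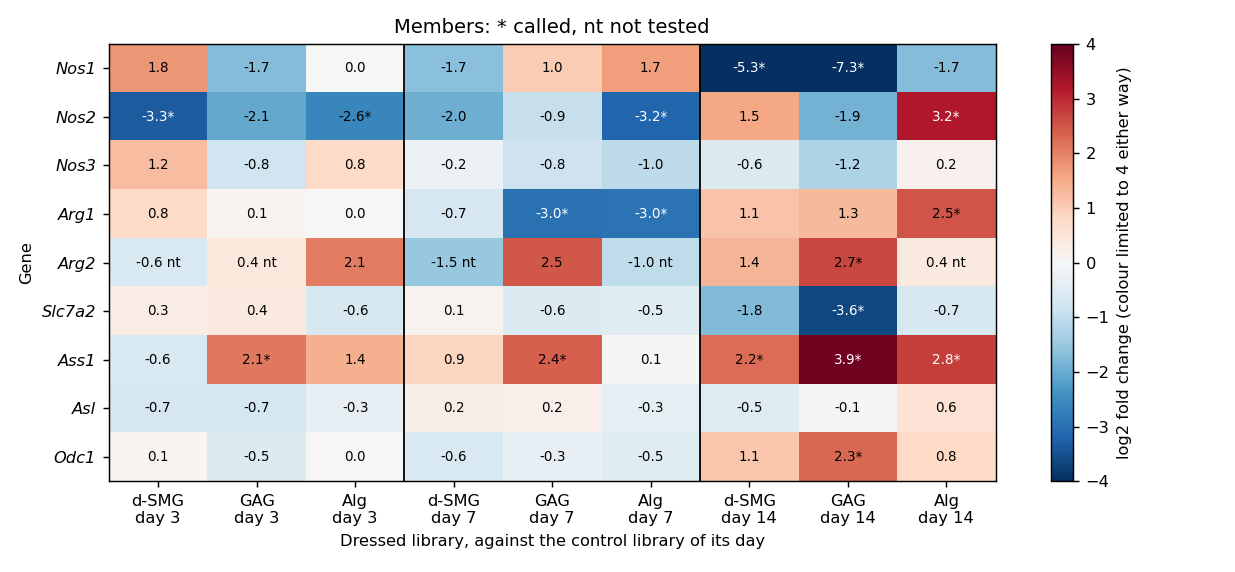
Log2 fold change of the 9 genes in each dressed library against the control library of its day (colour limited to 4 either way), with an asterisk for a pair called by the exact test and nt for a pair with too few reads to test. Ass1 is called in 5 pairs, Nos2 in 4 and Arg1 in 3, and the GAG column of day 14 holds 5 asterisks.

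To lie wholly above or below the control library of its day was common among all genes. On day 3 Nos2 and Asl were higher in control than in each dressed library, as were 23.9% of all genes. On day 7 Nos2, Nos3, Arg1 and Odc1 were higher in control, as were 23.6% of genes, and Ass1 was lower, as were 27.2%. On day 14 Nos1 and Slc7a2 were higher in control, as were 29.1% of genes, and Arg1, Arg2, Ass1 and Odc1 were lower, as were 28.9%.

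Over the 12 libraries together, with the days or the treatments standing in as replicates, edgeR's quasi-likelihood test called none of the 9 genes in any of the 6 comparisons, and it called 0% of the 15672 genes tested. At an unadjusted p under 0.05, 2 of the 9 genes passed between GAG and control (Ass1 and Arg2), where 9.26% of all genes did, and 1 between Alg and control (Ass1), where 3.01% did. None passed between d-SMG and control, where 1.34% of genes did. Between days, 1 passed from day 3 to day 7 (Arg1, 1.74% of all genes), 1 from day 3 to day 14 (Ass1, 4.91%) and 2 from day 7 to day 14 (Nos3 and Ass1, 2.99%). DESeq2 called 8, 287 and 84 genes for d-SMG, GAG and Alg against control, and 0, 41 and 7 genes for day 7 against day 3, day 14 against day 3 and day 14 against day 7. Ass1 for GAG was the only one of the 9 genes among them. The Nos2 differences of d-SMG, GAG and Alg from control over the days were -1.80 (SE 1.24), -1.45 (SE 1.14) and -0.85 (SE 1.34) on the log2 scale, none past the threshold. For d-SMG the difference was -0.57 without day 3 and -2.54 without day 14, and for Alg the direction turned when either day 3 or day 7 was left out. For d-SMG, the 95% interval of the Asl difference was -1.09 to 0.42 and that of the Odc1 difference -1.11 to 1.17, so that differences within those bounds are not excluded by these libraries.

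Genes whose log2 CPM over the 12 libraries was most like that of a gene of the 9 were sought among 13581 others. The nearest to Nos3 were Esam (r = 0.952), Notch4 (0.951) and Arap3 (0.9501), of which Esam, a junction protein, and Notch4, a receptor, are made by endothelium. Among the nearest to Nos1 were Fyco1 (0.955) and Mapt (0.955), and nearest to Nos2 were Mcph1 (0.945), Stx11 (0.927) and Thtpa (0.913). Ass1 was most like Tm4sf4 (0.986), Tom1l1 (0.974) and Hunk (0.968), and each kept an r above 0.95 without the 2 libraries in which Ass1 was most extreme. Pxdn (0.924) and Exoc3l2 (0.904) were among the nearest to Arg1, and without the 2 most extreme libraries their r was 0.581 and 0.785. Slc7a2 lay nearest to Rbl2 (0.976), Tmem47 (0.972) and Fnip1 (0.970), and Odc1 to Snrpf (0.973), Polr1e (0.960) and Hypk (0.956). The nearest to Arg2 were Ddx27 (0.896), Ppp1r36 (0.884) and Wdr74 (0.883). Their r without the 2 libraries in which Arg2 was most extreme was 0.767, 0.728 and 0.710. For Asl the highest values were lower, with Ap2m1 (0.832), Gpx3 (0.816) and Lnx1 (0.808). These r values describe 12 points that share their libraries, and carry no test.

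**Figure D4:**
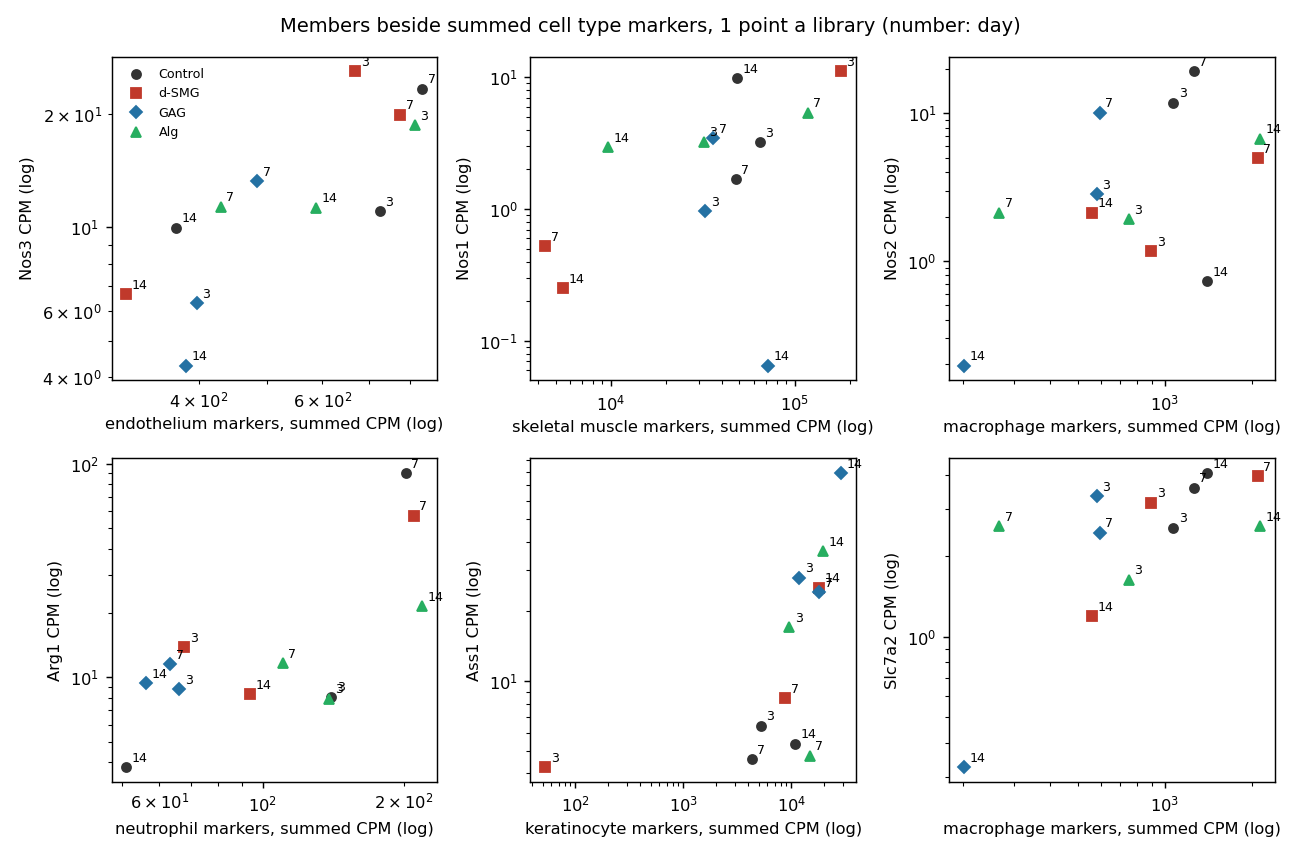
CPM of Nos3, Nos1, Nos2, Arg1, Ass1 and Slc7a2 against the summed CPM of markers of endothelium, skeletal muscle, macrophages, neutrophils, keratinocytes and macrophages again (both axes log), 1 point a library labelled with its day. Nos3 and the endothelial sum have r = 0.816, which did not pass adjustment, and the d-SMG library of day 3 stands alone at 52.7 CPM of keratinocyte markers.

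The other genes of the pathway were 48 in 7 lists, of which 47 were found. In the comparisons over the 12 libraries 40 of them could be tested and none was called by edgeR's quasi-likelihood test, as for all genes. In the library pairs none was called on day 3, against 6.48%, 4.32% and 2.58% of all genes in d-SMG, GAG and Alg. None was called on day 7 in d-SMG and Alg, against 1.78% and 2.14% of all genes. On day 7 in GAG 3 of 42 were called, all lower, against 2.79% of all genes called lower. On day 14 the counts were 2 of 41 in d-SMG and 1 of 43 in Alg, against 5.87% and 5.14% of all genes. In GAG on day 14 the count was 16 of 43. Of these 7 were higher and 9 lower, against 14.0% and 18.7% of all genes in those directions. The genes described below are from those called, at most 3 a list, taken by the largest log2 difference.

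Among transporters, Slc7a1, the widely expressed arginine carrier, was called higher in all 3 dressed libraries of day 14. It was measured at 5.67 CPM in control, 38.4 CPM in d-SMG, 67.4 CPM in GAG and 24.6 CPM in Alg, so that log2 differences were 2.76, 3.57 and 2.12. On that day Slc7a2, the other carrier, lay below control in the same 3 libraries. Over the days the difference of Slc7a1 between GAG and control was 1.98 (SE 0.579, edgeR quasi-likelihood adjusted p = 0.430). Slc7a7, an exporter of basic amino acids that macrophages express, was called lower in GAG on day 7, with a log2 difference of -2.03. The GAG library of that day held 595 CPM of macrophage markers, against 1261 CPM in control. The Alg library of day 7 held fewer, at 268 CPM, yet its Slc7a7 was higher than in GAG and was not called. Slc7a7 was at 1.96 CPM in GAG, 3.38 CPM in Alg and 7.99 CPM in control on day 7. The part of macrophage content in the Slc7a7 values was not tested.

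For the synthases' partners, the calls were those of GAG on day 14. Spr, which makes the cofactor tetrahydrobiopterin, was higher by 1.89 on the log2 scale. Of 6 regulators of the synthases 4 were called, 1 higher and 3 lower, against 14.0% and 18.7% of all genes in that pair. Nos1ap, an adaptor of Nos1, had 4 reads against 45 and a log2 difference of -3.07, and Nostrin, a trafficking factor of Nos3, one of -1.89. Nosip, which also binds Nos3, was higher by 1.77. Downstream of nitric oxide 4 of 7 genes were called lower in that library, against 18.7% of all genes. With the 7 lists together, the 16 of 43 called stood beside 32.7% of all genes called in either direction. Gucy1b1, the beta subunit of the receptor guanylate cyclase, had a log2 difference of -2.87. Gucy1a2, an alpha subunit, and Prkg1, the kinase that cGMP activates, had 3 reads each, with ratios of 11.9-fold lower (3.85 to 59.96) and 19.9-fold lower (6.57 to 98.6). Prkg1 was also called lower in d-SMG on day 14 at -2.49, with 11 reads against 80. Pde5a, which breaks down cGMP, was called lower in GAG on day 7 at -1.92. The median of the 7 signalling genes on day 14 in GAG was -2.11, against -0.10 over all genes. That library also held the lowest macrophage sum and 3 of 5 fibroblast markers called lower. Of 6 endothelial markers 2 were called lower and 1 higher in it, and of 6 keratinocyte markers 3 lower and 2 higher. The part of cell content in the values of the signalling genes was not tested.

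On the ornithine side, Srm, the spermidine synthase, and Azin2, an antizyme inhibitor, were called higher in GAG on day 14, by 2.38 and 2.51 on the log2 scale, and Azin1, its relative, lower at -1.64. Odc1 was higher in the same library. Pycr1, which makes proline, was called lower in GAG on day 7 at -2.18. Gatm, which uses arginine for creatine, was the only one of its list of 7 to be called, with 9 reads against 160 in GAG on day 14 and a log2 difference of -3.73. The map of log2 differences shows that apart from Slc7a1 and Prkg1 the calls of day 14 lay in the GAG library.

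**Figure D5:**
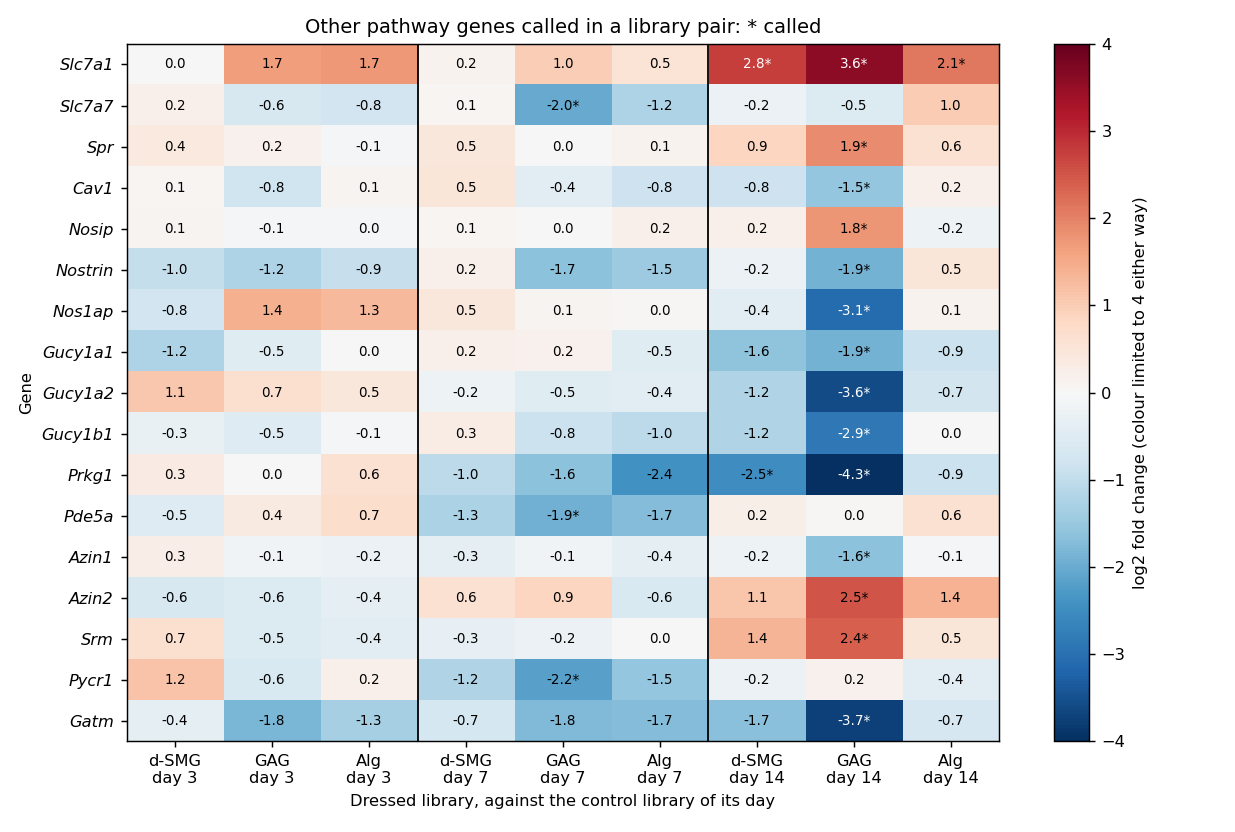
Log2 fold change of 17 other pathway genes called in at least 1 library pair (colour limited to 4 either way), in each dressed library against the control library of its day, with an asterisk for a called pair. Slc7a1 is called in all 3 pairs of day 14, at 2.76, 3.57 and 2.12, and 14 of the asterisks stand in the GAG column of day 14.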

How the data were processed

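RNA from 12 wound libraries, 1 for each treatment and day, was sequenced as stranded paired reads. The authors deposited whole-number read counts per gene without normalization, and the authors also deposited FPKM values, scaled for gene length and library total. The submitters' processing notes name bcl2fastq, FastQC, TopHat2 and edgeR. The genome build and the counting tool are not given in the sources used here, so chromosomes alone could be read from the files. Both tables hold 1 further column whose name matched no described sample, and it was left unused.

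Counts were scaled by TMM over the 12 libraries in edgeR 4.0.16 (R 4.3.3). The exact test, at a set BCV of 0.3, set each dressed library against the saline library of its day. It took in genes whose reads in the pair summed to at least 10, with Benjamini-Hochberg adjustment over them at 0.05. The BCV is an assumption taken from earlier work on these data. Dressings and days were compared over all libraries by the quasi-likelihood test, with treatment and day as terms, after filterByExpr, so that days or treatments stood in as replicates and p-values measure only the spread between these libraries. Reads carried no molecular identifiers that could be used. Correlations among genes used log2 CPM with a prior count of 2, and those with marker sums log2(CPM + 0.1) for the gene, with two-sided permutation tests of 100000 draws. In the alternatives limma 3.58.1, on log2(FPKM + 1) and log2(FPKM + 0.1), and DESeq2 1.42.0 were used. The edgeR tests and the intervals were tested on simulated data. Counts for the edgeR tests were drawn at the same BCV of 0.3, so they cannot show whether that value suits these libraries. Plots come from matplotlib 3.10.9 (Python 3.11.15).

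The 9 genes, the 7 pathway lists, the marker lists and the tests were chosen with earlier results of these data known. All 9 genes are given in full. Of each pathway list, every gene called over the days or treatments was to be named, otherwise at most 3 of the called genes with the largest log2 difference in a library pair, and for each of the 9 the 3 genes with the highest r over the 12 libraries, among those with at least 10 reads in at least 6 libraries and no provisional symbol. A few genes that this rule names are not reported here. The labels number no replicates. Alternatives covered scaling, BCV, low-count filters, tests, FPKM, unadjusted p-values and leaving out libraries, with those that leave out the d-SMG library of day 3 or the GAG library of day 14, and TMM over the 2 libraries, chosen after seeing the data.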

Additional observations from a re-analysis of the deposited data

Results flagged for a closer look

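On day 3 the Odc1 level of the GAG library lay apart from the other 3 libraries. Its gap to the nearest of them, divided by the range of the 4, was 0.841 on the log2 CPM scale, above Dixon's 95% critical value for groups of 4. Of 27 groups of 4 libraries tested it was the only one past the limit, and chance gives about 1 in 20. The values were 46.8 CPM in GAG against 67.4, 68.4 and 72.3 CPM in Alg, Control and d-SMG.

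The sign of the difference from control turned between day 7 and day 14 for Arg1 and Odc1 in all 3 dressings. Each dressed library was below control on day 7 and above it on day 14. Of all genes, 23.6% were higher in control than in each dressed library on day 7, and 28.9% were lower on day 14. The share of all genes that did both was not counted. The median log2 difference of the 3 dressings moved by 4.27 for Arg1 and by 1.58 for Odc1 from day 7 to day 14. The difference between the days was not tested, and each day rests on 1 control library, which all 3 dressings share.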

How the results depend on the processing

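Single libraries, an assumed BCV and low reads for Nos1, Nos2, Arg2 and Slc7a2 in some libraries limit these results. Over the 12 libraries none of the 9 genes was called by the quasi-likelihood test in any of the 6 comparisons under the other scalings, without the low-count filter, without the day or treatment term, or with a day, a treatment or a library left out, and none by limma on FPKM. DESeq2 called 1 gene for GAG against Control. At an unadjusted p under 0.05 there were 2 for GAG, 1 for Alg, 1 for day 7 against day 3, 1 for day 14 against day 3 and 2 for day 14 against day 7. The Nos2 difference of d-SMG from control, -1.80 with all days, was -0.57 without day 3 and -2.54 without day 14 (unadjusted p = 0.00443, edgeR). That of Alg was 0.66 without day 3, 0.28 without day 7 and -2.83 without day 14, against -0.85 on the log2 scale with all days. In the library pairs the calls of day 3, 3 in all, became 8 at a BCV of 0.2, 1 at a BCV of 0.4 and 7 at an unadjusted p under 0.05. Those of day 7, 4 in all, became 0 at a BCV of 0.4 and 7 at an unadjusted p under 0.05. Those of day 14, 10 in all, became 5 at a BCV of 0.4 and 5 without the GAG library of that day. Of the 17 calls, 6 held under all 9 settings, namely Nos2 in d-SMG on day 3 and in Alg on day 14, Nos1 in d-SMG and in GAG, Ass1 in GAG and Slc7a2 in GAG, the last 4 on day 14. With library size in place of TMM, which put the median of all genes at -0.48 in the GAG pair of day 14 and between -0.45 and 0.31 in the other 8 pairs, the log2 differences of Ass1 and Odc1 in GAG on day 14 were 3.48 and 1.91, and both stayed called. The day term blocked the dressings by day, and the treatment term the days by treatment. Without that block each of the 6 counts of called genes was 0, as with it, and the labels number no replicates from which another pairing could be made.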
